A study of Arabidopsis thaliana with 12 samples.

Results

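The 10 genes described here belong to nitrate uptake, nitrate reduction and the transcriptional response to nitrate in Arabidopsis thaliana: NRT1.1, NRT2.1, NIA1, NIA2, NIR1, UPM1, G6PD3, LBD37, LBD38 and LBD39. They were taken by gene identifier from tables of 32833 genes, and all 10 were found in both experiments. The data are read counts from RNA sequencing of whole seedlings of the Columbia-0 (Col-0) background, grown in soil under long days and harvested 12 days after germination. The 12 libraries form 4 groups of 3. Experiment 2 holds libraries labelled with the mutant fas2-4 and their own Col-0 set, and experiment 1 holds libraries labelled hira-1 and another Col-0 set. The product of FAS2 belongs to chromatin assembly factor 1, which deposits the replicative histone H3.1, and that of HIRA is a chaperone of the variant H3.3. Each label names 1 allele and no treatment was applied. The labels do not say whether replicates came from separate plants or sowings, so the p-values measure only the spread between these libraries.

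Plants take up nitrate through transporters of the NRT1 and NRT2 families. Nitrate reductase (NIA1 and NIA2) turns it into nitrite in the cytosol, and nitrite reductase (NIR1) turns nitrite into ammonium in the plastid. Nitrite reductase carries a siroheme cofactor, whose synthesis needs the uroporphyrin methyltransferase UPM1, and it draws reducing power that plastid glucose-6-phosphate dehydrogenases such as G6PD3 help to supply. Transcripts of many of these genes are known to be induced by nitrate. The nuclear proteins LBD37, LBD38 and LBD39 are themselves nitrate-induced and are known to repress other nitrate-responsive genes and anthocyanin synthesis.

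Libraries of experiment 2 held 39258873 to 39510509 counts and those of experiment 1 held 20700171 to 21902258. HIRA itself had +0.56 on the log2 scale (SE 0.30, edgeR adjusted p = 0.198) where the label is hira-1. HIRA had 12.7, 14.2 and 24.7 TMM-scaled CPM in those libraries, against 11.1, 14.3 and 9.98 CPM in Col-0 of experiment 1. The groups overlapped, and replicate 3 of the libraries labelled hira-1 was the highest. With a correction of each library for its trend on exon length HIRA was called as higher (+1.51, edgeR adjusted p = 0.0468). That correction with the replicate number as a block also gave a call (+1.33, edgeR adjusted p = 0.0229). These values do not show the HIRA transcript as lower under this label, and the counts alone do not settle the genotype. These libraries are therefore called by their label throughout, and every direction given for them is that of the libraries so labelled. FAS2 in fas2-4 had -0.40 (SE 0.16, edgeR adjusted p = 0.156). Where the label is hira-1, FAS2 had -0.65 (SE 0.31, edgeR adjusted p = 0.162), and was called with the block (-0.63, adjusted p = 0.0381) but not with block and length correction (-0.57, adjusted p = 0.0816). The fold changes of the libraries labelled hira-1 depended on exon length. Over all tested genes their median log2 fold change was +0.55 for exon lengths under 1000 bases, +0.16 for 1000 to under 2000, -0.28 for 2000 to under 3000 and -0.76 for 3000 bases or more. The corresponding medians in fas2-4 were +0.07, +0.04, 0.00 and +0.01. One fas2-4 library, replicate 1, had fewer counts in long genes relative to short ones (a median log2 CPM difference of 0.83) than the other fas2-4 libraries (1.94 and 1.87) and the Col-0 libraries of experiment 2 (1.55 to 1.73). Root markers were at or near 0 in all groups: 10 of the 12 genes fixed as such had fewer than 10 counts in every library, and 5 of them had none. The levels below therefore come from tissue with little root transcript, although NRT2.1 is best known as a root transporter.

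Measured per length, the nitrate reductase gene NIA2 had the highest mean of the 10 genes in Col-0 of both experiments, and the transporter NRT2.1 the lowest. In the authors' TMM-scaled TPM, a score scaled within each experiment, NIA2 averaged 505 ± 26.3 in the Col-0 libraries of experiment 2 (SD, n = 3). NIR1 followed at 246 ± 27.3, NRT1.1 at 127 ± 11, NIA1 at 36.6 ± 3.17 and LBD39 at 35.3 ± 1.43. UPM1 was at 29.9 ± 0.70, LBD38 at 20.2 ± 1.17, LBD37 at 20.1 ± 2.98, G6PD3 at 5.94 ± 0.43 and NRT2.1 at 0.71 ± 0.13. NIA1 and LBD39 overlapped in this order, as did LBD38 and LBD37. In the Col-0 libraries of experiment 1, NIA2 averaged 263 ± 114 and NIR1 245 ± 5.69 TMM-scaled TPM, and their libraries overlapped. LBD37 stood at 78.1 ± 7.98 there, beside NRT1.1 at 76.5 ± 14.1, and their libraries overlapped. UPM1 was at 60.5 ± 5.40, LBD39 at 45.2 ± 6.98, LBD38 at 28.1 ± 0.97, NIA1 at 27.7 ± 10.9, G6PD3 at 4.51 ± 0.87 and NRT2.1 at 0.15 ± 0.14. NRT1.1 and UPM1 overlapped there, as did LBD38 and NIA1. LBD37 was thus level with LBD38 in Col-0 of experiment 2 and above it in every Col-0 library of experiment 1.

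**Figure D1:**
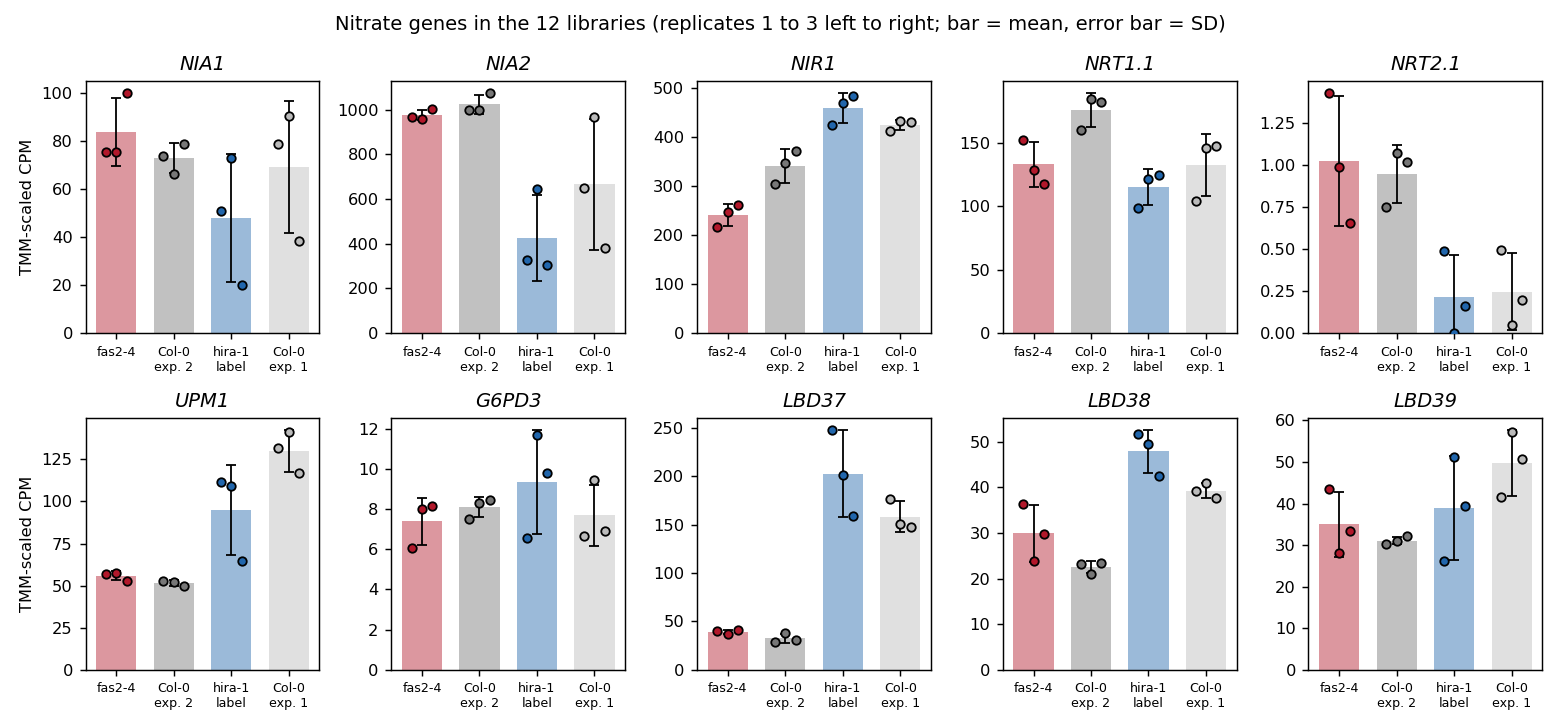
TMM-scaled CPM (vertical axes, linear, a separate scale per gene) of the 10 nitrate genes in fas2-4, Col-0 of experiment 2, the libraries labelled hira-1 and Col-0 of experiment 1. Points are libraries, bars are means and error bars are SD (n = 3). LBD37 lay at 37.1 to 40.9 CPM in fas2-4 and 29.0 to 37.9 CPM in Col-0 of experiment 2, and at 159 to 248 CPM in libraries labelled hira-1 and 148 to 177 CPM in Col-0 of experiment 1.

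LBD37 had the largest called difference between the sets of Col-0 among the 10 genes, and LBD39 moved against it in the paired fits described below, so the bases just before the starts of the 3 LBD genes are shown here. LBD37 (AT5G67420) lies on the minus strand of chromosome 5, 26903866 to 26906524, LBD38 (AT3G49940) on the plus strand of chromosome 3, 18514266 to 18516131, and LBD39 (AT4G37540) on the minus strand of chromosome 4, 17639393 to 17640925 (TAIR10.1). Each line gives the 250 bases upstream of the annotated gene start, 5′ to 3′ on the gene's own strand, at chr5:26906525-26906774 for LBD37, chr3:18514016-18514265 for LBD38 and chr4:17640926-17641175 for LBD39. Capitals mark matches on either strand to GAATC, a core bound by the HRS1 family of nitrate-induced repressors, and to TGACG, the core bound by TGA factors.
LBD37: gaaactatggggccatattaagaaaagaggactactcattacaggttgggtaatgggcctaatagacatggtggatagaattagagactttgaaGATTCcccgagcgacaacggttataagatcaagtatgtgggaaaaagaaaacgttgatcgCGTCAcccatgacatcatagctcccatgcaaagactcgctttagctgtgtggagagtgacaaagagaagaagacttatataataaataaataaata
LBD38: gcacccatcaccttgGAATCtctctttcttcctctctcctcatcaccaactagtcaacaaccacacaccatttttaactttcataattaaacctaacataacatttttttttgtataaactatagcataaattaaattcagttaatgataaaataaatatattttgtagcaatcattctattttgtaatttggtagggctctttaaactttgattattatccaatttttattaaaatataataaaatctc
LBD39: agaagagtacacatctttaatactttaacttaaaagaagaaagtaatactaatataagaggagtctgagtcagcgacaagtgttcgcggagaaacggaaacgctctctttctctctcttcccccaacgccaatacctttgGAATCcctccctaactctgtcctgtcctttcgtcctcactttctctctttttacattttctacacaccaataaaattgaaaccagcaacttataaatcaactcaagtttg
Matches on the opposite strand appear as their reverse complements. GAATC occurred once in each LBD window, first base at -156 in LBD37 (minus strand relative to the gene), -235 in LBD38 and -110 in LBD39 from the gene start. Of the 10 nitrate genes, 7 held it in this window, against 38.9% of 27431 protein-coding genes. TGACG occurred in 1 of the 10, LBD37, at -96 on the strand opposite to the gene, against 18.6% of all genes. The longer repressor motif GAATATTC and the half-site TGACCCTT of the nitrate-responsive element occurred in none of the 10 windows and in 0.86% and 0.427% of all genes. A match is a stretch of letters and not a measured binding site.

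In fas2-4, none of the 10 nitrate genes passed the test against Col-0 of experiment 2, while 9.74% of the 20004 tested genes did. At an unadjusted p under 0.05 the count was 3 of 10 (25.4% of all tested genes), and DESeq2 called 2 of 10 (14.9% of all). The libraries of 4 genes did not overlap between the groups, against 31.7% of all tested genes. NIR1 and NRT1.1 lay lower in every fas2-4 library than in every Col-0 library, and LBD38 and UPM1 lay higher. The median log2 fold change of the 10 genes was +0.13, against +0.03 over all tested genes.

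Nitrite reductase had the lowest value relative to its spread. NIR1 (AT2G15620, chromosome 2, 6810395 to 6812941) had 216, 246 and 261 TMM-scaled CPM in fas2-4, against 304, 345 and 372 CPM in Col-0. All fas2-4 libraries were below all Col-0 libraries. Its log2 fold change was -0.47 (SE 0.13, edgeR adjusted p = 0.0612), which misses the threshold. It passed with DESeq2 (-0.50, adjusted p = 0.00707) and with the correction for exon length (-0.46, edgeR adjusted p = 0.022), and without fas2-4 replicate 1 (-0.42, edgeR adjusted p = 0.0162). Without that library 28% of all genes and 2 of the 10 nitrate genes were called. The other was NRT1.1 (AT1G12110, chromosome 1, 4105223 to 4109601), the dual-affinity transporter that also acts as a nitrate sensor. NRT1.1 had 153, 129 and 118 CPM in fas2-4, against 161, 185 and 183 CPM in Col-0. The groups did not overlap, but fas2-4 replicate 1 came close to the lowest Col-0 library. Its log2 fold change was -0.38 (SE 0.13, edgeR adjusted p = 0.109), or -0.50 without fas2-4 replicate 1 (adjusted p = 0.00525), and DESeq2 called it at -0.40 (adjusted p = 0.0469).

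Nitrate reductase showed no such separation. NIA2 (AT1G37130, chromosome 1, 14158452 to 14161938), which gives most of the nitrate reductase transcript, had 965, 959 and 1003 CPM in fas2-4, against 997, 998 and 1074 CPM in Col-0. Its groups overlapped, and it stood at -0.05 on the log2 scale (SE 0.11, edgeR adjusted p = 0.859), with an approximate 95% interval of -0.27 to +0.18. NIA1 (AT1G77760, chromosome 1, 29235721 to 29239484) had 75.6, 75.3 and 99.9 CPM in fas2-4, against 73.8, 66.3 and 78.5 CPM in Col-0. These overlapped as well (+0.22, SE 0.15, edgeR adjusted p = 0.405), and the value was +0.06 without fas2-4 replicate 3. The summed TMM-scaled TPM of NIA1 and NIA2 over that of NIR1 was 3.29, 2.88 and 2.90 in fas2-4, against 2.41, 2.11 and 2.13 in Col-0. The ratio was thus higher in each fas2-4 library than in each Col-0 library, a description with no test.

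The genes that serve nitrite reductase had smaller values than NIR1. UPM1 (AT5G40850, chromosome 5, 16365900 to 16369316) had 57.2, 57.5 and 52.7 CPM in fas2-4, against 52.6, 52.1 and 49.6 CPM in Col-0. The lowest fas2-4 library lay just above the highest Col-0 library, and the log2 fold change was +0.14 (SE 0.11, edgeR adjusted p = 0.478). G6PD3 (AT1G24280, chromosome 1, 8609338 to 8612580) had 6.04, 7.99 and 8.13 CPM in fas2-4, against 7.52, 8.28 and 8.46 CPM in Col-0. These overlapped (-0.11, SE 0.16, edgeR adjusted p = 0.758), and fas2-4 replicate 1 was the lowest. UPM1 and G6PD3 overlap genes on the opposite strand. That of UPM1 had 0 counts in every library, against 1181 to 2966 for UPM1. Those of G6PD3, AT1G05867 and AT1G24290, had 0 to 2 and 9 to 81 counts a library, against 121 to 386 for G6PD3. Whether the counting used strand is not given in the sources used here.

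All 3 LBD repressor genes had positive values in fas2-4 and none passed. Without fas2-4 replicate 1, LBD39 had -0.01 and LBD38 +0.25 on the log2 scale, neither called. LBD38 had 36.3, 23.8 and 29.8 CPM in fas2-4, against 23.3, 21.0 and 23.4 CPM in Col-0. The groups did not overlap, although fas2-4 replicate 2 was only just above Col-0, and the log2 fold change was +0.43 (SE 0.16, edgeR adjusted p = 0.124). LBD37 had 40.0, 37.1 and 40.9 CPM in fas2-4, against 29.0, 37.9 and 31.2 CPM in Col-0. One Col-0 library reached into the fas2-4 range, and the log2 fold change was +0.29 (SE 0.13, edgeR adjusted p = 0.216). LBD39 had 43.6, 28.0 and 33.3 CPM in fas2-4, against 30.3, 30.9 and 32.1 CPM in Col-0. It overlapped (+0.19, SE 0.16, edgeR adjusted p = 0.522), and fas2-4 replicate 1 was the highest for both LBD38 and LBD39. NRT2.1 (AT1G08090, chromosome 1, 2524023 to 2526322), the main high-affinity nitrate transporter of roots, had 60, 46 and 31 counts in fas2-4, against 31, 43 and 40 in Col-0. With so few counts its log2 fold change of +0.13 had an SE of 0.32 (edgeR adjusted p = 0.862).

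**Figure D2:**
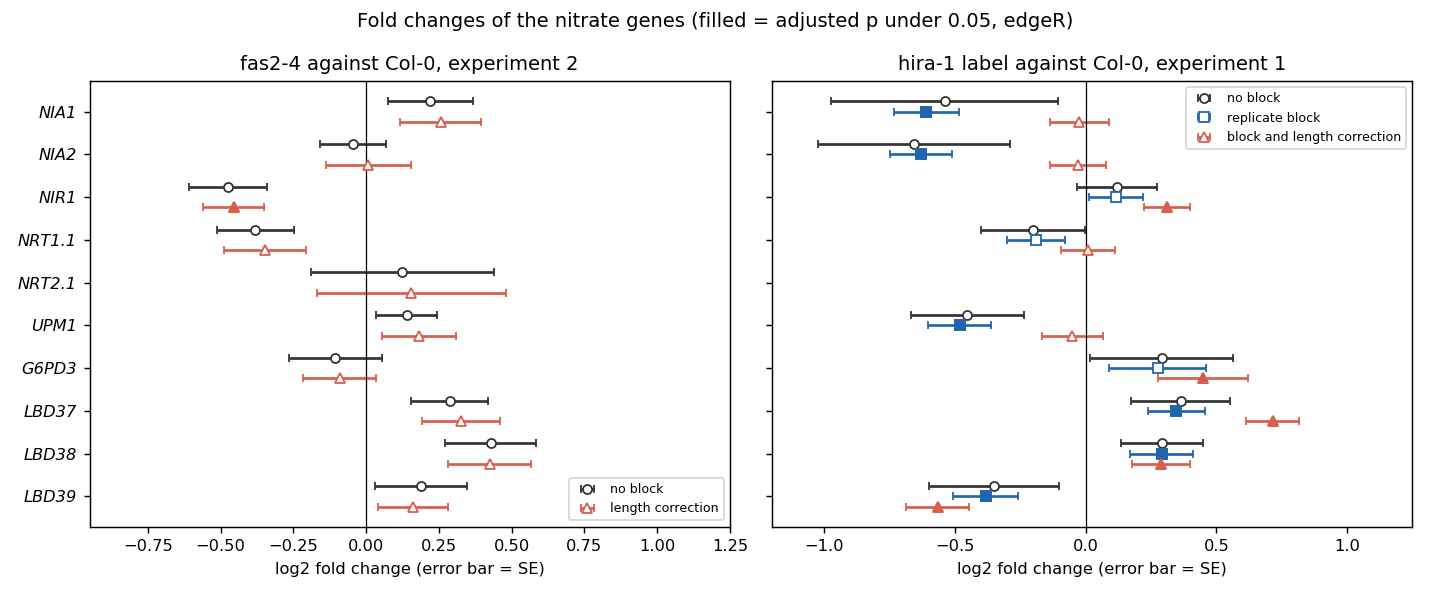
Log2 fold changes with SE (horizontal axes) of the nitrate genes in fas2-4 against Col-0 of experiment 2 (left) and in the libraries labelled hira-1 against Col-0 of experiment 1 (right), under the fits named in the legends. Filled symbols have an edgeR adjusted p under 0.05. On the right, NIA1, NIA2 and UPM1 lie at -0.61, -0.63 and -0.48 with the replicate block and near 0 with the block and the length correction together, while LBD37 lies further above 0 with both.

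Over 5 lists of other nitrogen genes, 7 of 75 tested genes were called in fas2-4, which is 9.33% against 9.74% of all tested genes. Of 16 tested genes of ammonium uptake and assimilation, 2 rose and 1 fell. GLN1;1 and GLN1;3, which encode cytosolic glutamine synthetases, rose by 1.08 (SE 0.17, edgeR adjusted p = 0.00636) and 0.97 (SE 0.13, adjusted p = 0.0039) on the log2 scale, and both kept the call whichever of the 6 libraries was left out. GLN2, which encodes the plastid isoform, fell by 0.51 (SE 0.13, edgeR adjusted p = 0.045) and kept the call in 1 of 6 such fits. Of 15 nitrate transport genes 0 rose and 2 fell. NRT2.3 fell by 1.04 (SE 0.21, edgeR adjusted p = 0.0175, kept in 3 of 6 fits) and NRT2.7, a transporter of the vacuole, by 0.53 (SE 0.13, adjusted p = 0.0371, kept in 1 of 6).
Of 19 nitrate signalling genes, CIPK8, a kinase gene of the low-affinity nitrate response, was the 1 called, and it rose by 1.22 (SE 0.17, edgeR adjusted p = 0.00383, kept in 6 of 6 fits). Of 5 tested nitrate-induced repressor and BT genes, BT1 fell by 0.54 (SE 0.11, edgeR adjusted p = 0.0187, kept in 1 of 6), and none of 20 genes of reductant and cofactor supply was called (3 at an unadjusted p under 0.05). Green leaf markers moved in the same comparison: 2 of 10 fell and 0 rose, against 2.96% of all tested genes called as lower. These were RBCS3B and RBCS1A, which kept the call in 2 and 1 of 6 fits. With the replicate block 0 were called, while 2.23% of all tested genes were called as lower. With block and length correction 6 fell and 0 rose, and 5.97% of all tested genes were called as lower. The summed level of the 10 markers was 54600 to 60150 CPM in fas2-4, against 76370 to 89240 CPM in Col-0. In such bulk samples fewer cells of a type and less RNA per cell cannot be told apart. The part of the green leaf markers in the values of NIR1, NRT1.1 and GLN2 was not tested.

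In the libraries labelled hira-1, none of the 9 tested nitrate genes passed the test without pairing, by edgeR or by DESeq2, and none had an unadjusted p under 0.05. Of all 18739 tested genes 13.7% passed by edgeR and 24% by DESeq2, and 36.4% had such an unadjusted p. Same-numbered libraries of experiment 1 deviated together, a pairing read from these same data and not given by the labels. Their median log2 CPM differences between long and short genes also kept the same order. These were 0.08, 0.745 and -0.54 in libraries labelled hira-1 and 1.62, 1.84 and 0.84 in Col-0 (replicates 1 to 3). The part of the length trend in this pairing was not tested. With the number as a block 6 of the 9 were called, 2 up and 4 down. Of all tested genes 51.2% were called so (23.9% up and 27.3% down). With the block, NIA1, NIA2, UPM1 and LBD39 were lower and LBD37 and LBD38 higher. With the block the class medians of all tested genes still ran from +0.54 under 1000 bases to -0.78 at 3000 bases or more. With the block and the length correction together 5 of 9 were called, 4 up and 1 down, against 38.2% of all genes (20.3% up and 18% down). LBD37 and LBD38 stayed higher and LBD39 lower, NIR1 and G6PD3 were called as higher, and NIA1, NIA2 and UPM1 were not called. Within pairs, 8 of the 9 genes had the same sign in all 3 pairs, and so had 70.9% of all tested genes.

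Nitrate reductase varied widely between the libraries of experiment 1, and the paired libraries varied together. NIA2 had 325, 645 and 304 CPM in libraries labelled hira-1, against 647, 968 and 382 CPM in Col-0. The groups overlapped, but each library labelled hira-1 was below the Col-0 library of its own number. Its log2 fold change was -0.66 (SE 0.37, edgeR adjusted p = 0.221), and -0.63 (SE 0.12, adjusted p = 0.000122) with the block. NIA1 had 50.7, 73.0 and 19.99 CPM in libraries labelled hira-1, against 78.9, 90.5 and 38.1 CPM in Col-0. In both groups its levels had the same order over the replicates as those of NIA2. The differences within pairs did not: pair 3 had the largest for NIA1 (-0.87) and the smallest in size for NIA2 (-0.27). The log2 fold change of NIA1 was -0.54 (SE 0.43, edgeR adjusted p = 0.385), or -0.61 (SE 0.12, adjusted p = 0.00017) with the block. Both genes kept the call with the block whichever pair was left out. NIA1 and NIA2 have the longest exons of the 10 genes, 3155 and 3205 bases. With the block and the length correction their log2 fold changes were -0.02 (SE 0.11, edgeR adjusted p = 0.886) and -0.03 (SE 0.11, adjusted p = 0.854).

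**Figure D3:**
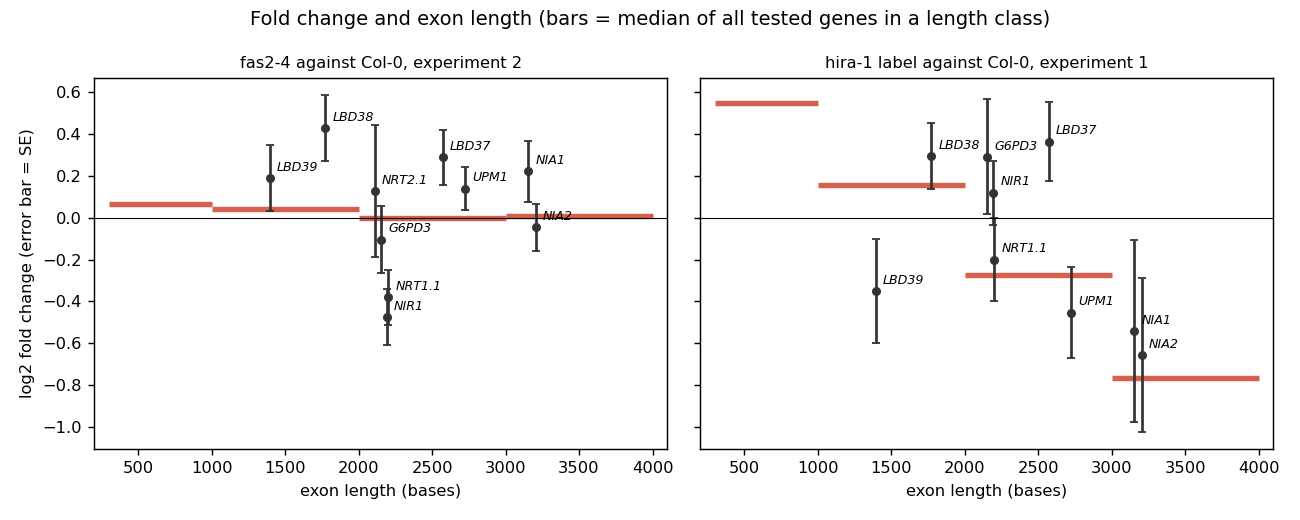
Log2 fold change with SE (vertical axes) of each tested nitrate gene against its exon length in bases (horizontal axes) in fas2-4 (left) and in the libraries labelled hira-1 (right), from the fits without a block. Horizontal bars are medians of all tested genes by length class, the last class being drawn up to the axis end. On the right the class medians step down to -0.76 at 3000 bases or more, where NIA1 (-0.54) and NIA2 (-0.66) lie, and LBD37 (+0.36) lies above the median of its class (-0.28) and LBD39 (-0.35) below that of its own (+0.16).

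UPM1 lay lower in all libraries labelled hira-1 than in all Col-0 libraries, with 112, 109 and 64.3 CPM against 132, 142 and 117 CPM in Col-0. It was 1 of 2 genes without overlap (38.6% of all tested genes had none). Replicate 3 of the libraries labelled hira-1 stood well below the other replicates. The log2 fold change was -0.45 (SE 0.22, edgeR adjusted p = 0.162), -0.48 with the block (SE 0.12, adjusted p = 0.00141) and -0.05 with block and length correction (SE 0.12, adjusted p = 0.759). Without pair 3 the call with the block was lost (-0.29, edgeR adjusted p = 0.133).
NIR1 had 423, 469 and 482 CPM in libraries labelled hira-1, against 412, 431 and 430 CPM in Col-0. Values were close and overlapped, and each pair was higher in the library labelled hira-1. Its log2 fold change was +0.12 (SE 0.15, edgeR adjusted p = 0.589), and +0.31 (SE 0.09, adjusted p = 0.0103) with block and length correction, a call lost without pair 3 (+0.28, adjusted p = 0.085). The summed TMM-scaled TPM of NIA1 and NIA2 over that of NIR1 was 0.609, 1.05 and 0.460 in the libraries labelled hira-1, against 1.21, 1.68 and 0.670 in Col-0. It was lower in each library labelled hira-1 than in the Col-0 library of the same number. The ratio is not corrected for the length trend, and NIA1 and NIA2, at -0.54 and -0.66 without corrections, were at -0.02 and -0.03 with block and length correction.

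LBD37 was higher in the libraries labelled hira-1 in the paired fits. It had 248, 202 and 159 CPM in libraries labelled hira-1, against 177, 151 and 148 CPM in Col-0. The groups overlapped through pair 1 of Col-0, and every pair was higher in the library labelled hira-1. The log2 fold change was +0.36 (SE 0.19, edgeR adjusted p = 0.193), +0.35 with the block (SE 0.11, adjusted p = 0.00986), and +0.72 with block and length correction (SE 0.10, adjusted p = 3.33e-05). The length correction alone also gave a call (+0.73, SE 0.17, edgeR adjusted p = 0.0319), the 1 call among the 9 genes (10.1% of all genes). Without pair 1 the call with the block alone was lost (+0.27, edgeR adjusted p = 0.126), while with both corrections it held whichever pair was left out (+0.60 to +0.83).
LBD38 had 51.7, 49.5 and 42.6 CPM in libraries labelled hira-1, against 39.2, 41.0 and 37.7 CPM in Col-0. All libraries labelled hira-1 lay above all Col-0 libraries. The log2 fold change was +0.29 (SE 0.16, edgeR adjusted p = 0.203), and it just passed with the block (+0.29, SE 0.12, adjusted p = 0.0444) and with both corrections (+0.29, SE 0.11, adjusted p = 0.0454). Both calls were lost when any 1 pair was left out: with the block the adjusted p was 0.223, 0.0661 and 0.0952 without pairs 1, 2 and 3, and with both corrections it was 0.196, 0.101 and 0.0897.

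LBD39 went the other way. It had 26.3, 51.3 and 39.3 CPM in libraries labelled hira-1, against 41.5, 57.3 and 50.6 CPM in Col-0. The groups overlapped and every pair was lower in the library labelled hira-1, pair 1 by most. The log2 fold change was -0.35 (SE 0.25, edgeR adjusted p = 0.325), -0.38 with the block (SE 0.12, adjusted p = 0.0114), and -0.57 with both corrections (SE 0.12, adjusted p = 0.00125). The call with the block was lost without pair 1 (-0.26, edgeR adjusted p = 0.155) and without pair 3 (-0.38, adjusted p = 0.0986), and that with both corrections held whichever pair was left out. LBD37 and LBD39 thus moved in opposite directions in the paired fits with length correction.
The transporter NRT1.1 had 98.8, 122 and 125 CPM in libraries labelled hira-1, against 104, 146 and 148 CPM in Col-0. It overlapped and was lower in every pair, with -0.20 (SE 0.20, edgeR adjusted p = 0.482), and was not called with the block (-0.19, adjusted p = 0.158). G6PD3 had 6.56, 11.7 and 9.81 CPM in libraries labelled hira-1, against 6.66, 9.44 and 6.93 CPM in Col-0. Pair 1 was level and the other pairs were higher in the libraries labelled hira-1. Its log2 fold change was +0.29 (SE 0.28, edgeR adjusted p = 0.46), and +0.45 with both corrections (SE 0.17, adjusted p = 0.0483), a call that was lost without pair 2 (+0.47, adjusted p = 0.135) and without pair 3 (+0.34, adjusted p = 0.298). NRT2.1 had 9, 0 and 3 counts in the libraries labelled hira-1, against 10, 1 and 4 in Col-0, and was filtered out before the test. A difference was not detectable at this depth.

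**Figure D4:**
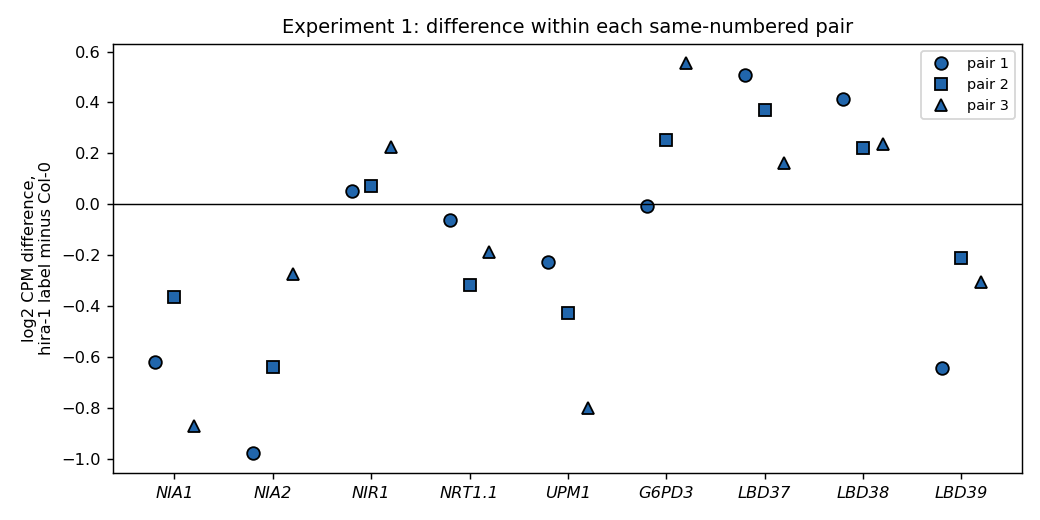
Difference in log2 TMM-scaled CPM between the library labelled hira-1 and the Col-0 library of the same replicate number (vertical axis) for the 9 tested nitrate genes, with 1 symbol per pair. NIA1, NIA2, NRT1.1, UPM1 and LBD39 lie below 0 in all 3 pairs, NIR1, LBD37 and LBD38 above 0 in all 3, and G6PD3 at 0.00 in pair 1.

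Among the other nitrogen genes in the libraries labelled hira-1, 8 of 72 were called without the block, which is 11.1% against 13.7% of all tested genes. The calls were 2 of 19 nitrate signalling genes, both lower, 3 higher and 1 lower of 20 genes of reductant and cofactor supply, and 2 lower of 16 genes of ammonium assimilation. None of 12 nitrate transport genes and 5 nitrate-induced repressor and BT genes was called (2 and 0 at an unadjusted p under 0.05). GLU1, which encodes the ferredoxin-dependent glutamate synthase of leaves, fell by 1.88 (SE 0.34, edgeR adjusted p = 0.023, kept in 3 of 6 fits without 1 library). Its exons span 5495 bases, and with block and length correction it fell by 0.90 (SE 0.10, adjusted p = 2.51e-06). GLN2 fell by 0.80 (SE 0.18, edgeR adjusted p = 0.0302, kept in 2 of 6) and by 0.67 with both corrections.
HB1, which encodes a phytoglobin, rose by 1.24 (SE 0.24, edgeR adjusted p = 0.023, kept in 2 of 6) and by 0.87 with both corrections. CPK32, a calcium-dependent protein kinase gene, fell by 1.47 (SE 0.36, edgeR adjusted p = 0.0363, kept in 2 of 6) and by 1.19 with both corrections. NLP2, a transcription factor gene of the nitrate response with exons of 4453 bases, fell by 1.14 (SE 0.27, edgeR adjusted p = 0.0341, kept in 2 of 6), but with both corrections it had -0.26 (adjusted p = 0.351). The ferredoxin gene FD3 rose by 0.73, the ferredoxin reductase gene RFNR2 fell by 0.73 and AT2G43760 rose by 0.65 (edgeR adjusted p = 0.0363, 0.0415 and 0.0496), kept in 1, 0 and 2 of 6 fits. With the length correction alone FD3 had +0.35 (edgeR adjusted p = 0.3) and AT2G43760 +0.51 (adjusted p = 0.0669), neither called, while RFNR2 stayed called (-0.82, adjusted p = 0.0224). With both corrections all 3 were called, at +0.35, +0.51 and -0.83 for FD3, AT2G43760 and RFNR2. The summed level of the root markers was 2.44 to 3.43 CPM in libraries labelled hira-1, against 1.29 to 1.77 CPM in Col-0, and 1 of them, TIP4;1, was called as higher (+1.31, edgeR adjusted p = 0.0363), though not with the length correction alone (+1.03, adjusted p = 0.0695). Their part in these values was not tested.

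The effects of fas2-4 and of the libraries labelled hira-1 were set against each other as a difference of differences. NIR1 was the 1 nitrate gene of 10 called, against 11.6% of all 20152 tested genes. Its effect in fas2-4 was 0.61 lower on the log2 scale than that in the libraries labelled hira-1 (difference -0.61, SE 0.18, edgeR adjusted p = 0.049). The call was lost with upper-quartile scaling (-0.59, edgeR adjusted p = 0.0584), with no filter on low counts (-0.58, adjusted p = 0.083) and with a 2-fold minimum. It held by DESeq2 (-0.64, adjusted p = 0.00418), with the length correction (-0.79, edgeR adjusted p = 0.00968) and with block and length correction (-0.79, adjusted p = 0.00139). It was kept in 2 of 12 fits that left out 1 library, those without fas2-4 replicate 1 (edgeR adjusted p = 0.0439) and without replicate 2 of the libraries labelled hira-1 (adjusted p = 0.0487). In the other 10 the adjusted p was 0.0587 to 0.119 with differences of -0.68 to -0.53.
With the replicate block 4 of the 10 were called (32.1% of all genes): NIR1, and NIA1 (+0.81, edgeR adjusted p = 0.00908), NIA2 (+0.57, adjusted p = 0.0349) and UPM1 (+0.61, adjusted p = 0.0253). This difference also depended on exon length. With the block its median over all tested genes was -0.47 under 1000 bases and +0.29 for 2000 to under 3000, the class of UPM1. It was +0.78 at 3000 bases or more, the class of NIA1 and NIA2. With block and length correction 2 were called (28.4% of all genes), NIR1 and LBD39 (+0.70, SE 0.19, edgeR adjusted p = 0.0169). NIA1, NIA2 and UPM1 then had +0.25, -0.0041 and +0.20 and were not called (edgeR adjusted p = 0.268, 0.991 and 0.438). Without block or length correction LBD37 and LBD38 had differences of -0.09 (SE 0.24, edgeR adjusted p = 0.81) and +0.12 (SE 0.22, adjusted p = 0.728). Their approximate 95% intervals were -0.56 to +0.38 and -0.31 to +0.56. With both corrections LBD37 had -0.41 (SE 0.19, edgeR adjusted p = 0.13, interval -0.79 to -0.04) and LBD38 +0.10 (SE 0.16, adjusted p = 0.684). Neither was called, and the LBD37 value thus depended on the corrections. Of the other nitrogen genes, CIPK8 (+1.18, SE 0.24, edgeR adjusted p = 0.0128) and RFNR2 (+1.09, SE 0.23, adjusted p = 0.0137) were called in this contrast and in all 12 fits without 1 library. GLN1;3 (+1.29, SE 0.28, edgeR adjusted p = 0.0165) kept its call in 11 of 12.

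The sets of Col-0 were compared to see how far the wild-type levels of these genes differ between the experiments. Of the 10 nitrate genes 4 were lower in Col-0 of experiment 2 than in Col-0 of experiment 1 and 0 were higher, while 24.4% of all 20152 tested genes differed, 11.2% being higher and 13.2% lower. The libraries of 8 of the 10 did not overlap, against 49.9% of all tested genes. The 10 genes were chosen with earlier results of these data known, so these shares are descriptions only. The 4 were all 3 LBD genes and UPM1. LBD37 had 29.0, 37.9 and 31.2 CPM in Col-0 of experiment 2, against 177, 151 and 148 CPM in Col-0 of experiment 1. The lowest library of experiment 1 was several times above the highest of experiment 2, and the log2 fold change was -2.28 (SE 0.18, edgeR adjusted p = 1.45e-05).
UPM1 had 52.6, 52.1 and 49.6 CPM in Col-0 of experiment 2, against 132, 142 and 117 CPM in Col-0 of experiment 1 (-1.34, SE 0.19, edgeR adjusted p = 0.000337). LBD38 had 23.3, 21.0 and 23.4 CPM, against 39.2, 41.0 and 37.7 CPM in Col-0 of experiment 1 (-0.80, SE 0.16, edgeR adjusted p = 0.00331). LBD37, UPM1 and LBD38 were called in all 6 fits that left out 1 Col-0 library. LBD39 had 30.3, 30.9 and 32.1 CPM in Col-0 of experiment 2, against 41.5, 57.3 and 50.6 CPM in Col-0 of experiment 1 (-0.68, SE 0.23, edgeR adjusted p = 0.0436). Its call held in 1 of those 6 fits, the one without replicate 1 of experiment 1 (edgeR adjusted p = 0.0471), and the others gave 0.0908 to 0.133.

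Nitrate reductase and the transporters were not called between the sets of Col-0, but 3 of them did not overlap. NIA2 had 997, 998 and 1074 CPM in Col-0 of experiment 2, against 647, 968 and 382 CPM in Col-0 of experiment 1. The second library of experiment 1 nearly reached experiment 2, and the log2 fold change was +0.62 (SE 0.31, edgeR adjusted p = 0.159). Without that library it was called (+0.99, edgeR adjusted p = 0.0398). Over all tested genes the median of this contrast was -0.04 for exon lengths under 1000 bases and +0.21 at 3000 bases or more, the class of NIA2. With the length correction NIA2 had +0.48 (SE 0.21, edgeR adjusted p = 0.104). NRT2.1 summed to 114 counts over Col-0 of experiment 2, against 15 counts over the more shallowly sequenced Col-0 of experiment 1. Its log2 fold change was +1.93 (SE 0.70, edgeR adjusted p = 0.0603), called by DESeq2 (+1.956, adjusted p = 0.0248) and, by edgeR, without replicate 1 of experiment 1 (+2.93, adjusted p = 0.0376). NRT1.1 had +0.41 (SE 0.17, edgeR adjusted p = 0.0922), NIR1 -0.32 (SE 0.13, adjusted p = 0.0906), NIA1 +0.08 (SE 0.37, adjusted p = 0.901) and G6PD3 +0.07 (SE 0.23, adjusted p = 0.832). DESeq2 called NIR1 as lower (-0.31, adjusted p = 0.0466), and so did edgeR with the length correction (-0.39, adjusted p = 0.0206).

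Of 75 other nitrogen genes 26 differed between the sets of Col-0, which is 34.7% against 24.4% of all tested genes. The lists were chosen with earlier results of these data known, so this share is a description only. Of 5 tested nitrate-induced repressor and BT genes 3 were lower in experiment 2 and 0 higher: the myb-like factor genes AT1G25550 (-1.95, SE 0.25, edgeR adjusted p = 0.000173) and AT1G68670 (-1.14, SE 0.20, adjusted p = 0.00137), and BT2 (-4.59, SE 0.97, adjusted p = 0.00473). Of 15 nitrate transport genes 7 were higher and 0 lower. Among them were NRT2.3 (+3.53, SE 0.46, edgeR adjusted p = 0.000206), NRT1.9 (+1.89, SE 0.35, adjusted p = 0.00207) and NRT3.1 (+1.33, SE 0.27, adjusted p = 0.00404), which encodes the partner protein of NRT2 transporters. Of 16 genes of ammonium uptake and assimilation 3 were higher and 0 lower, and of 20 genes of reductant and cofactor supply 6 were higher and 2 lower. Of 19 nitrate signalling genes 3 were higher and 2 lower. BT2, the myb-like genes and these 3 transporter genes were called in all 6 fits without 1 library.
Clock genes differed too: 4 of 10 were higher and 1 lower in experiment 2, and their summed level was 1186 to 1326 CPM in Col-0 of experiment 2, against 491 to 631 CPM in Col-0 of experiment 1. LHY, a gene expressed around dawn, was higher by 1.59 (SE 0.22, edgeR adjusted p = 0.000346), and PRR5 had 21 to 30 counts per library in Col-0 of experiment 2 and 0 in each library of experiment 1. Of 10 green leaf markers 2 were higher and 7 lower. Experiment, sequencing depth and any difference in time of harvest cannot be told apart here, and the part of the clock genes in the levels of the nitrate genes was not tested.

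Across the 12 libraries, centred within each experiment, NIA1 followed NIA2 with Pearson's r of 0.84 and UPM1 with 0.85, and LBD37 followed LBD38 with 0.65. NRT1.1 ran against LBD37 (-0.67), and LBD39 against LBD37 gave -0.42. These are descriptions over libraries that share their experiment's spread, including the length trend. Of 18622 genes compared, the 5 most alike to NIA1 were TSD2, XLG2, AT3G09030, AT1G75990 and AT4G33620 (r = 0.97 to 0.98). For NIR1 they were CP33 (r = 0.97), HEMC (0.95), ATP-PRT1 (0.95), AT1G29700 (0.94) and AAH (0.93). HEMC encodes an enzyme of tetrapyrrole synthesis, the pathway from which siroheme branches. For NRT2.1, whose libraries hold few counts, they were AT1G05310, YUC8, AT3G55820, PRR1 and XCP1 (r = 0.91 to 0.93).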

How the data were processed

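RNA was sequenced from 12 whole-seedling libraries, 3 in each of 4 groups taken from the sample titles. The submitters' processing notes name fastp 0.23.4, HISAT2 2.2.1 and the TAIR10 genome. How genes were counted, with which annotation and whether by strand, is not given in the sources used here. Raw read counts per gene were deposited by the authors. They also deposited TMM-scaled TPM values, a score scaled by gene length and library within each experiment. All 24 columns were used. Positions, exon lengths and sequences come from RefSeq's TAIR10.1, matched by identifier for 32548 of 32833 genes.

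Counts were filtered with filterByExpr, scaled with TMM, and tested by the robust 2-sided quasi-likelihood test of edgeR 4.0.16 (R 4.3.3), with Benjamini-Hochberg adjustment over all tested genes and a threshold of 0.05. The fas2-4 libraries and those labelled hira-1 were each fitted with their own Col-0. The difference and the Col-0 sets were contrasts over all 12 libraries, and printed CPM values use their scaling. SE is the log2 fold change divided by the root of F. The length correction is an offset from a lowess trend (span 0.3) of each library on log2 exon length. DESeq2 1.42.0, RLE and upper-quartile scaling, other filters, a 2-fold minimum and leaving out each library were alternatives. Only the fits without block or length correction were tested on simulated data, which held no length trend and no pairing of libraries.

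Same-numbered libraries of experiment 1 deviated together (r = 0.281, 0.536 and 0.637), so its blocked values are printed beside the results. The pairing comes from this check and not from the labels. All 10 members are named, plus up to 4 called genes per nitrogen list with the smallest adjusted p, and the 5 genes most alike to NIA1, NIR1 and NRT2.1. Members and lists were chosen with earlier results of these data known. Paired fits without 1 pair were added after seeing the data.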

Additional observations from a re-analysis of the deposited data

Results flagged for a closer look

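NIR1 was the nitrate gene whose effect differed between fas2-4 and the libraries labelled hira-1 in a direct test: its log2 fold change in fas2-4 was 0.61 below that in the libraries labelled hira-1 (difference -0.608, SE 0.184, edgeR adjusted p = 0.049). The values behind it are -0.47 in fas2-4 and +0.12 in the libraries labelled hira-1, neither of which passed its own test. It was kept in 2 of 12 fits without 1 library, and lost with upper-quartile scaling (adjusted p = 0.0584), with no filter on low counts (adjusted p = 0.083) and with a 2-fold minimum.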

How the results depend on the processing

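Over all members and comparisons 626 single-gene values kept direction and side of the threshold, 53 gained a call, 21 lost one and 25 changed sign. Without 1 library the genes called ranged from 643 to 5661 in fas2-4 (0 to 2 nitrate genes), 19 to 5021 in the libraries labelled hira-1 (0 nitrate genes in each), 723 to 4844 for the difference (0 to 1) and 2961 to 4095 between the Col-0 sets (3 to 5). DESeq2 called 2980 genes in fas2-4 (2 nitrate genes), 4502 in the libraries labelled hira-1 and 4181 for the difference. The length correction called 3257 in fas2-4 (1) and left 1 nitrate gene called in the libraries labelled hira-1. One fit over all 12 libraries called 1117 (1) in fas2-4 and 5999 in the libraries labelled hira-1. A 2-fold minimum left 993, 1388 and 2269 genes in fas2-4, the libraries labelled hira-1 and the Col-0 sets, with 2 nitrate genes in the last and 0 for the difference, which also had 0 with upper-quartile scaling and with no filter. The replicate block called 9593 genes (6 nitrate genes) in the libraries labelled hira-1 and 6461 (4) for the difference, and block and length correction 7124 (5) and 5692 (2). Leaving out 1 pair gave 6390 to 8647 genes (3 to 5) with the block, 8177 (3), 8647 (5) and 6390 (3) without pairs 1, 2 and 3, and 6090 (4), 5658 (3) and 4538 (2) with both corrections. In experiment 2 the numbers did not pair the libraries (r = -0.066, 0.163 and 0.006, not every library being closest to its own number). The block there called 1465 genes and NIR1 (-0.47, adjusted p = 0.047), and with length correction 2960 (1). Between the Col-0 sets the block, with numbers that pair nothing, called NRT2.1 (+2.11, adjusted p = 0.0421) and not LBD39 (adjusted p = 0.0509). With the length correction signs changed for NIA2 in fas2-4 (0.0067), NIA1 in the libraries labelled hira-1 (0.015) and NIA1 between the Col-0 sets (-0.064, or -0.021 with the block). With both corrections they changed for NRT1.1 in the libraries labelled hira-1 (0.0092) and the NIA2 difference (-0.0041). With both and without pair 1 NIA2 had 0.083. Without pair 2 NIA2 had 0.024 and NRT1.1 0.085. Without pair 3 NIA1 had 0.13, NRT1.1 0.037 and UPM1 0.13. Without 1 library signs changed for NRT2.1 (-0.20 to +0.36), G6PD3 (-0.20 to +0.0029) and LBD39 (-0.012 to +0.32) in fas2-4. The same held for the differences of NRT2.1 (-0.68 to +1.72), LBD37 (-0.23 to +0.092) and LBD38 (-0.042 to +0.26), and between the Col-0 sets for NIA1 (-0.22 to +0.32) and G6PD3 (-0.016 to +0.25). The causes were not tested. The filter of 50 counts in 3 libraries gave no value for NRT2.1, whose counts of 0 to 60 limit any statement on it. Fitting all 12 libraries is already the design of the difference.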
